A study of Rattus norvegicus with 3 samples.

Results

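The locus of Gpam and Vti1a was described here as the stretch of rat chromosome 1 from 261000000 to 262100000 on assembly rn4, 1.1 Mb in length. It was read from 3 deposited lists of regions in which more methylated DNA was captured from one neonatal liver library than from another. The locus was chosen by called regions that the study annotates to Gpam and to Vti1a, so their presence in the lists and their scores are given as a description and carry no test. It held 54 of the 95306 regions of the 3 lists. The lists are named here by the library that was higher and the library it was compared with. The MLP/C list gave 17 of these regions (of 35998 in that list), the MLP/MLP-F list 15 (of 33730) and the MLP-F/C list 22 (of 25578).

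The libraries came from livers of male Wistar rats aged 1 day, grouped by the diet of the dam. MLP dams were fed a low protein diet, MLP-F dams the same low protein diet with added folic acid, and C dams a normal diet without added folic acid. DNA of 6 animals per group by the labels was pooled into 1 library, the study's methods give a larger number, and all pups of a group came from the same litter, so diet and litter cannot be told apart. Methylated fragments were captured with a methyl-CpG binding domain (MBD), sequenced, and compared by the program MACS, which takes one library as the sample and another as its background. With 1 library per group no spread between animals exists, and no difference between diets was tested. In whole liver, a change in the mix of cell types and a change of methylation within cells cannot be told apart, and lists of regions hold no marker of cell type against which the tissue could be checked.

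MBD capture enriches fragments in which CpG, a cytosine followed by a guanine, carries a methyl group. Most CpGs in mammalian DNA are methylated, while CpG-rich gene starts are usually not. Gpam encodes the mitochondrial glycerol-3-phosphate acyltransferase, which joins a fatty acid to glycerol-3-phosphate in the first step of triglyceride and phospholipid synthesis, and its expression in liver rises with feeding and insulin. Vti1a encodes a SNARE protein of the trans-Golgi network and endosomes, where SNAREs on vesicle and target membrane pair to drive fusion. By the order of protein-coding genes in RefSeq (assembly GRCr8), Gpam is followed by LOC120098625, Tectb, Gucy2g, Acsl5, Zdhhc6 and Vti1a, and the next gene is Tcf7l2. Acsl5 activates long-chain fatty acids as acyl-CoA, the substrate of Gpam, and Tcf7l2 is a transcription factor of Wnt signalling. The positions of these neighbours on rn4 were not used here, so no region was assigned to them.

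The region of Gpam with the highest score lies at 261416653 to 261417934 and that of Vti1a at 261708399 to 261710471. For both, the annotation of the study names simple tandem repeats, in which a short unit is repeated head to tail. The units are printed because they are the sequence that the files give for the 2 strongest regions, with CpG in capitals.

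Gpam unit A: tactg
Gpam unit B: CGgtg
Gpam unit C: taCGg
Vti1a unit A: ctgtg
Vti1a unit B: CGctg

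Each unit has 5 bases. Units B and C of Gpam and unit B of Vti1a hold 1 CpG per copy, and the other units hold 0, counted over the unit and its junction with the next copy. The annotation was made by a search for nearby repeats, so a unit named for a region need not fill it, and the number of copies was not determined. The other Gpam region, at 261054078 to 261054595, is annotated with a MIRb element, a short interspersed repeat. Those of Vti1a at 261775705 to 261776166 and 261805996 to 261806394 are annotated with tandem repeats whose unit is not spelled out.

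No region of any list lay within 5 kb of the Vti1a start, as inferred on rn4 from the distances in the study's annotation. For Gpam no such result is given. The gene is on the minus strand in RefSeq, so with the same orientation on rn4 its downstream side has lower positions. The downstream label of both Gpam regions then places the start to the right of both, while the start inferred from the distances lies between them. The 250 bases before each start are shown for comparison with the repeat units, from RefSeq on assembly GRCr8, with CpG in capitals. That of Gpam is chr1:264175912-264176161 on the minus strand, and that of Vti1a is chr1:264361624-264361873 on the plus strand.

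Gpam promoter: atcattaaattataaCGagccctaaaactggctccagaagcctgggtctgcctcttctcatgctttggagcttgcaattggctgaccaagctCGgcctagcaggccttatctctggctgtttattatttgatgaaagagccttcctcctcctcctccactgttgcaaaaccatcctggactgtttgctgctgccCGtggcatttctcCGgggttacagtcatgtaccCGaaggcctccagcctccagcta
Vti1a promoter: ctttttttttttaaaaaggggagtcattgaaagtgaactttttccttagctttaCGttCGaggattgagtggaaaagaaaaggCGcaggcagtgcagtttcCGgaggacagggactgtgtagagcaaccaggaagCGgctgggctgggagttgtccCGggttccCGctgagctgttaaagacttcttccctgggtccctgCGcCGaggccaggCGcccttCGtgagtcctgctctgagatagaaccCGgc

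The promoter of Gpam held 5 CpGs, and 55.3% of the 33469 promoters of that length held as many or more. That of Vti1a held 12, and 31.5% of the promoters held as many or more. CG reads the same on both strands, and the median promoter held 5. Absence of a region near a start says only that no pair of libraries passed the threshold there, and not that the start was unmethylated or alike in the 3 groups. Whether the starts on GRCr8 are those that the study used was not checked.

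The score of a region is the −log10 of its p from MACS, multiplied by 10. The lowest score in the lists was 50, a p of 1e-05. All regions of the lists were counted here, also those outside the false discovery rate (FDR) by which the study selected its regions. A score also depends on the number of reads of both libraries, and by the study's read numbers MLP was the deepest library and C the shallowest. Scores are therefore set side by side and not read as amounts of methylation.

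The Gpam region at 261416653 to 261417934 had the highest score of the locus, 2285 in the MLP/C list and 2285 in the MLP/MLP-F list. It was absent from the MLP-F/C list. It stood at place 13 of the MLP/C list and at place 14 of the MLP/MLP-F list, and measured 1282 bp, against a median of 672 bp for the 17 MLP/C regions of the locus. The study labels it downstream of Gpam. With Gpam on the minus strand, as in RefSeq, that label places the gene start to the right of this region. The start inferred from the annotated distances lies between this region and the other Gpam region and conflicts with that label.

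The distance of the Gpam region from its neighbours differed between the lists. In the MLP/C list the nearest regions lay 132 kb to its left, with a score of 55.6, and 180 kb to its right, with a score of 86.6. In the MLP/MLP-F list they lay 81.3 kb and 73.1 kb away, with scores of 52.0 and 56.4. The median gap between neighbouring regions of the locus was 31660 bp in the MLP/C list and 69150 bp in the MLP/MLP-F list. In the MLP/MLP-F list the Gpam region was thus about as far from its neighbours as is usual in the locus. In the MLP-F/C list it fell in the widest gap of the locus, 238151 bp without a region.

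The other Gpam region, at 261054078 to 261054595, was 518 bp long and scored 131 in the MLP/C list. It was absent from the MLP/MLP-F list, and it overlapped an MLP-F/C region (261053885 to 261054506) with a score of 65.8. At 3827 bp from its end began a region with no gene name in the annotation, at 261058423 to 261059179, that showed the other arrangement. This region scored 84.0 in the MLP/C list and 266 in the MLP/MLP-F list, the third highest score of the locus there, and it was absent from the MLP-F/C list. These neighbouring regions thus differed in which lists held them.

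**Figure D1:**
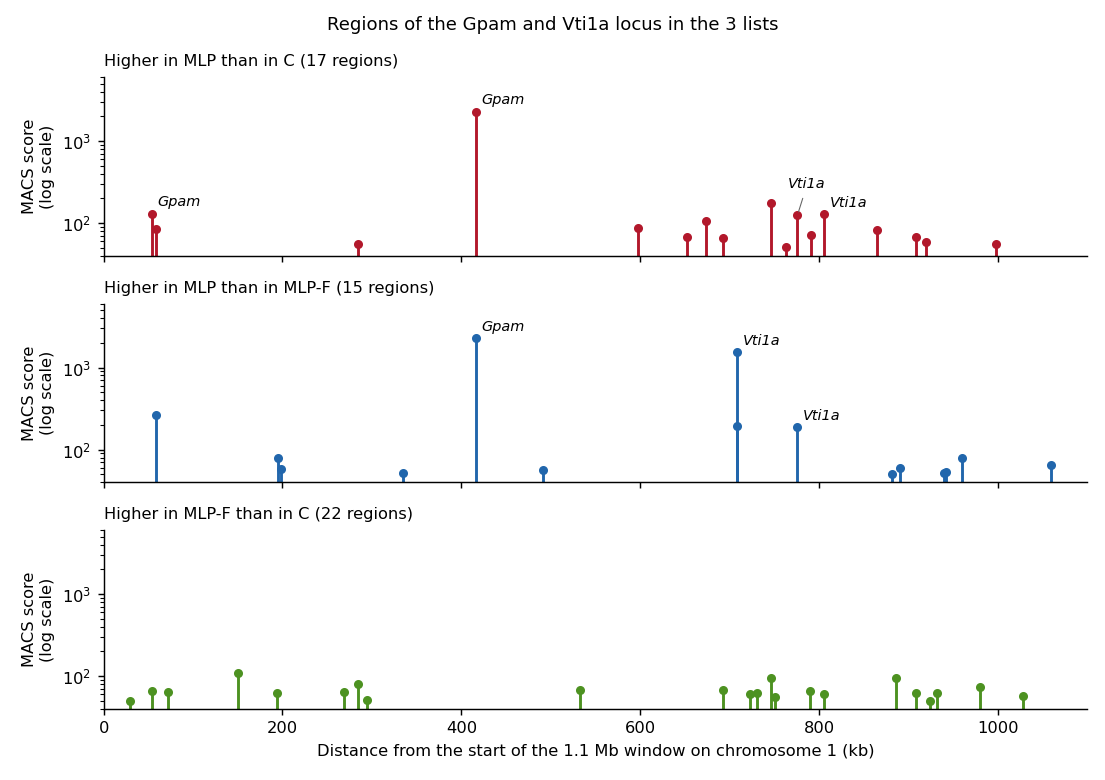
MACS score (log scale) of each region of the locus against the distance of its start from the start of the window in kb, in 1 panel for each list, with Gpam and Vti1a written at the regions that the study annotates to them. The Gpam region with a score of 2285 is in both MLP lists, the Vti1a region with a score of 1551 is in the MLP/MLP-F list alone, and no MLP-F/C region scores above 109.

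Vti1a held the second strongest region, labelled intronic, at 261708399 to 261710471. It scored 1551 in the MLP/MLP-F list, at place 37 of that list. In the lists against C, for MLP and for MLP-F, no region overlapped it. With 2073 bp it was the longest region of the locus. A further MLP/MLP-F region, at 261707786 to 261708159 with a score of 196, ended 239 bp before it, and 1.19% of the 33708 gaps between neighbouring regions of that list were as small. It too was in neither of the other lists.

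Of the 73 MLP/MLP-F regions with scores of 1000 or more in the whole list, 62 were also in the MLP/C list, as at Gpam, and 11 (15.1%) were not, as at Vti1a. Among the 67 MLP/C regions with such scores, 26 overlapped an MLP-F/C region and 41 did not, as at Gpam. Scores of 1000 or more were held by 1 of the 17 MLP/C regions of the locus, 2 of the 15 MLP/MLP-F regions and 0 of the 22 MLP-F/C regions. In the whole lists the percents were 0.186%, 0.216% and 0.0313%. Since the locus was chosen by these regions, nothing is read from that count. The starts of the Gpam and Vti1a regions lie 291746 bp apart, and of 108 sites with such scores in the 3 lists, 35 (32.4%) had another as near.

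**Figure D2:**
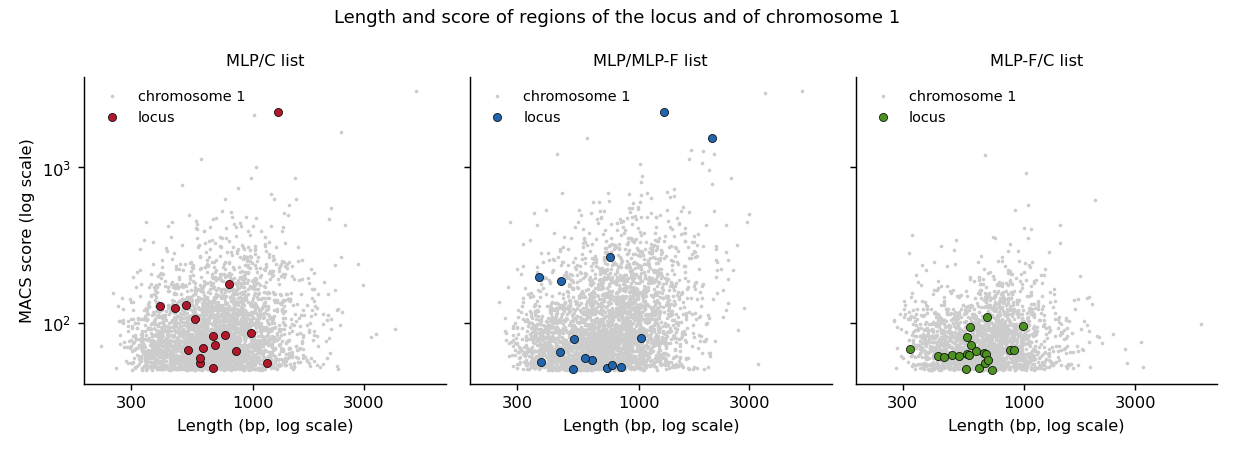
Score against length of each region (both log scales) in the 3 lists, with the regions of the locus in colour and all regions of chromosome 1 in grey. The Gpam region, 1282 bp with a score of 2285, and the Vti1a region, 2073 bp with a score of 1551, lie apart from the other members.

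The regions annotated to introns of Vti1a span 98.0 kb, from 261708399 to 261806394. That span lies within the gene, since introns of Vti1a hold both of its ends, and it held 13 regions of the 3 lists. Of these, 5 were MLP/C regions with scores between 51.5 and 177. A further 2 were MLP/MLP-F regions with scores of 187 and 1551, and 6 were MLP-F/C regions with scores between 55.5 and 95.5. The whole lists held 12.9 MLP/C, 12.1 MLP/MLP-F and 9.16 MLP-F/C regions per Mb. Both ends of the span are regions by which the locus was chosen, so nothing is read from these numbers.

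The intronic Vti1a region at 261775705 to 261776166 was 462 bp long and scored 125 in the MLP/C list and 187 in the MLP/MLP-F list. It was absent from the MLP-F/C list. The intronic region at 261805996 to 261806394, 399 bp long, scored 129 in the MLP/C list. It was absent from the MLP/MLP-F list, and it overlapped an MLP-F/C region (261805949 to 261806399) with a score of 60.5. The 2 regions had similar scores in the MLP/C list and differed in the other list that held them.

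Within the same span, a region with no gene name in the annotation at 261746247 to 261747036 scored 177 in the MLP/C list, above both named Vti1a regions of that list. It overlapped an MLP-F/C region (261746016 to 261747003) that scored 95.5. The other 2 MLP/C regions of the span, at 261762956 to 261763627 (51.5) and 261790525 to 261791212 (71.8), overlapped no region of another list. The MLP-F/C list had 3 regions of its own between 261722279 and 261751891, with scores of 61.3, 61.8 and 55.5, and a further region at 261789284 to 261790184 (66.8) that ended 340 bp before the MLP/C region at 261790525.

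Presence in 2 lists has a particular meaning for the MLP lists. All 14194 overlaps between the MLP/C list and the MLP/MLP-F list, over the genome, were between regions with the same start and the same end. Of the 8175 overlaps between the MLP/C and MLP-F/C lists, 0 were. The 3 regions of the locus that both MLP lists hold therefore have the same ends in both, while an overlap with the MLP-F/C list joins regions with different ends. The Gpam region also had the same score in both MLP lists, as did 773 (5.45%) of the 14194 regions. Among the 39 with scores of 1000 or more in both lists, 10 did. Of those 10, 7 scored below 3100, which is the highest score of both MLP lists. The lists also share libraries: MLP is the sample in both MLP lists, C is the background in 2 lists, and MLP-F is the background of one and the sample of another.

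Of the 17 MLP/C regions, 3 (17.6%, 95% Wilson interval 6.19 to 41.0%) were also in the MLP/MLP-F list, against 39.4% over the whole list. These were the regions at 261058423, 261416653 and 261775705 described above. A further 6 (35.3%, 17.3 to 58.7%) overlapped an MLP-F/C region, against 22.6% over the whole list, and 0 were in both. The intervals cover counting error only and test nothing, since the regions at 261416653 and 261775705 were among those by which the locus was chosen.

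Seen from the MLP/MLP-F list, 3 of its 15 regions (20%, 7.05 to 45.2%) were also in the MLP/C list, against 42.1% over the whole list. At scores of at least 100 in both lists, 33.3% of the MLP/C regions of the locus were shared (35.0% over the whole list). The converse was 40% of the MLP/MLP-F regions (31.6%). The regions shared at that score, at 261416653 and 261775705, were among those by which the locus was chosen. Nothing is therefore read from these percents. Of all 15 MLP/MLP-F regions, 0 overlapped an MLP-F/C region (interval 0 to 20.4%), against 1.27%. Of the 22 MLP-F/C regions, 6 (27.3%, 13.2 to 48.2%) overlapped an MLP/C region, against 31.8%, and 0 (0 to 14.9%) an MLP/MLP-F region, against 1.67%.

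The 6 sites in the MLP/C and MLP-F/C lists fell into 3 with a score at least 65.0 higher for MLP and 3 without. At 261746247 the scores against C were 177 for MLP and 95.5 for MLP-F, at 261805996 they were 129 and 60.5, and at 261054078 they were 131 and 65.8. At 261692914 they were 66.1 for MLP and 67.6 for MLP-F, and at 261907985 they were 68.7 and 63.0. At 261283983 the order was the other way, with 55.6 for MLP and 81.0 for MLP-F. Starts differed by 15 to 231 bp and ends by 2 to 89 bp between the lists at these sites. Of the 6, 0 were in the MLP/MLP-F list, which does not show that these libraries were alike there.

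**Figure D3:**
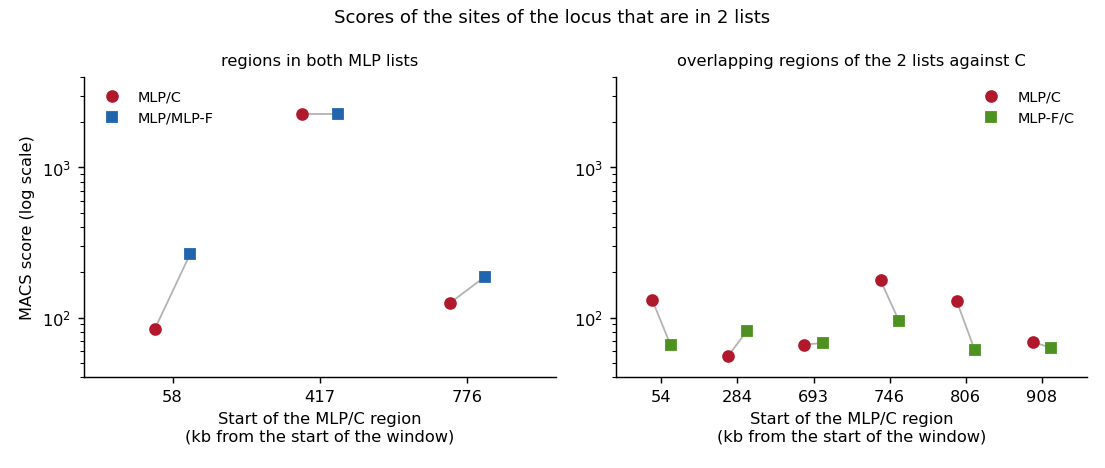
MACS score (log scale) of the 9 sites of the locus that are in 2 lists, in order of the start of the MLP/C region in kb from the start of the window; circles are scores of MLP against C, squares in the left panel scores of MLP against MLP-F and in the right panel scores of MLP-F against C. The Gpam region has 2285 in both MLP lists, and the other scores lie between 55.6 and 266.

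Joined by overlap, the 54 regions made 45 sites. The most frequent kind was in the MLP-F/C list alone, with 16 sites (35.6%), against 23.9% of 72909 sites over the genome. Sites in the MLP/MLP-F list alone numbered 12 (26.7%, against 26.8%), and those in the MLP/C list alone numbered 8 (17.8%, against 19.3%). A further 3 sites were in both MLP lists (6.67%, against 18.9%) and 6 were in both lists against C (13.3%, against 10.6%). Sites at which MLP-F was below MLP and above C in the lists numbered 0, against 0.553% in all 3 lists and 0.0329% in the lists MLP/MLP-F and MLP-F/C alone. The nearest approach was at 261194162 to 261194647, an MLP-F/C region with a score of 62.5 that ended 62 bp before an MLP/MLP-F region with a score of 80.1.

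Most members lay near the threshold of the lists. Of the 54, 42 had a score below 100, 9 had a score of 100 or more and below 1000, and 3 had a score of 1000 or more, which are the Gpam region in both MLP lists and the Vti1a region. Scores of 100 or more were held by 6 of 17 MLP/C regions (35.3%, against 31.1% of the whole list), 5 of 15 MLP/MLP-F regions (33.3%, against 36.8%) and 1 of 22 MLP-F/C regions (4.55%, against 19.1%). That 1 MLP-F/C region lay left of the Gpam start at 261150544 to 261151236, with a score of 109, and was in no other list. The next highest of that list were those at 261746016 (95.5), 261885767 (94.4), 261283968 (81.0) and 261979770 (72.8). The median score was 82.8 for the MLP/C regions of the locus (77.4 in the whole list). It was 64.9 for the MLP/MLP-F regions (81.8) and 63.3 for the MLP-F/C regions (69.4). The annotated regions by which the locus was chosen all scored 100 or more in the MLP lists that held them. The percents and medians of both MLP lists follow partly from that choice, and nothing is read from them or from their contrast with the MLP-F/C list.

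Regions that the annotation does not name made up the rest of the locus. In the MLP/C list the region at 261673384 to 261673946, right of the Vti1a start, scored 106 and was in no other list. Right of the last annotated Vti1a region, at 261806394, lay 4 MLP/C regions, 6 MLP/MLP-F regions and 6 MLP-F/C regions. Their scores ran between 50.2 and 94.4, and the site at 261907985 was the only one of them in 2 lists. Acsl5 lies between the starts of Gpam and Vti1a in the RefSeq gene order. The Gpam start could not be placed on rn4, so regions between the starts were not counted. From the Gpam region at 261416653, itself included, to the inferred Vti1a start lay 3 MLP/C regions, 2 MLP/MLP-F regions and 1 MLP-F/C region. Of these 6 only the Gpam region exceeded a score of 86.6.

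By number the locus was richest in MLP-F/C regions, although with scores of at least 100 the order was reversed, with 6 MLP/C, 5 MLP/MLP-F and 1 MLP-F/C regions. Chromosomes were laid out in tiles of 1.1 Mb, with the locus as a tile of chromosome 1, and 2459 other tiles were counted. The 22 MLP-F/C regions of the locus compare with a median of 8 per tile (quartiles 4 and 15), and 217 tiles (8.82%) held as many or more. With scores of at least 100 this was 73.6% of tiles. The 17 MLP/C regions compare with a median of 12 (quartiles 7 and 20), and 850 tiles (34.6%) held as many or more. The 15 MLP/MLP-F regions compare with a median of 11 (quartiles 7 and 17), and 804 tiles (32.7%) held as many or more. More MLP-F/C regions than MLP/C regions, as in the locus, were found in 397 tiles (16.1%), and more than in either MLP list in 282 tiles (11.5%). These percents describe the lists and test nothing.

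**Figure D4:**
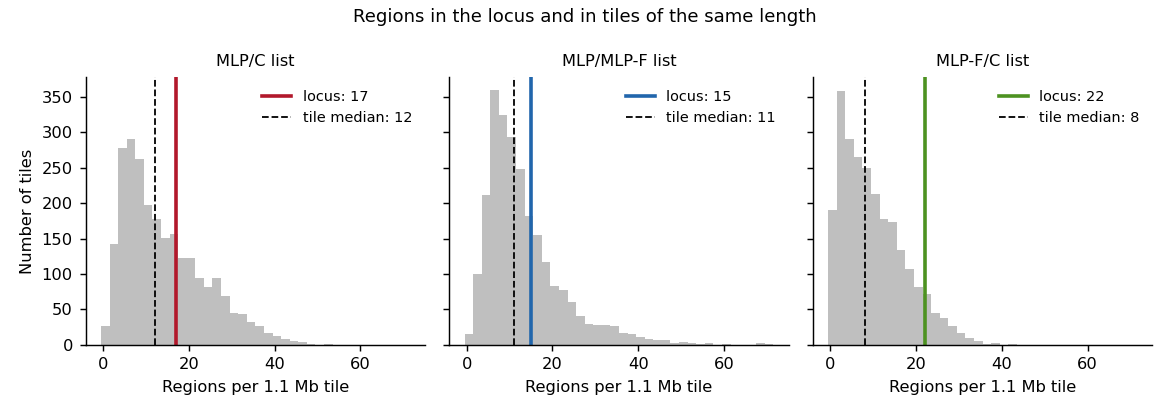
Number of tiles of 1.1 Mb (vertical axis) by the number of regions in a tile (horizontal axis) for each list, with the count in the locus as a coloured line and the median tile as a dashed line. The locus holds 17, 15 and 22 regions, and the median tiles hold 12, 11 and 8.

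Regions covered 1.1% of the locus in the MLP/C list, 1.04% in the MLP/MLP-F list and 1.26% in the MLP-F/C list. Over chromosome 1 the percents were 0.973%, 1.01% and 0.642%. Median lengths in the locus were 672, 633 and 607 bp, and in the whole lists 674, 727 and 657 bp.

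At the left edge of the window, the MLP/C list had a region with a score of 79.9 just outside (260943282 to 260944096) and the Gpam region with a score of 131 first inside. At the right edge its last region inside was at 261998000 to 261999147 (55.7) and its first outside at 262144008 to 262144824 (105). In the MLP/MLP-F list the regions next to the edges scored 219 outside and 266 inside on the left, and 64.9 inside and 59.6 outside on the right. In the MLP-F/C list they scored 80.0 outside and 50.4 inside on the left, and 57.6 inside and 67.8 outside on the right.

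Other genes of the same pathways were looked up among the gene names of the study's annotation, which covers only regions that its authors selected. Of the 23154 protein-coding gene symbols in RefSeq, it names 2.49%. In a list of 34 genes of glycerolipid and fatty acid synthesis, which held acyltransferases, lipins and acyl-CoA synthetases among others, Gpam was named and the 33 others, Acsl5 among them, were not. The list is not complete, and the annotation also names Acly, which makes cytosolic acetyl-CoA from citrate, and Elovl5, which lengthens fatty acids. In a list of 27 genes of SNARE-driven fusion, 3 were named, with Vti1a among them by the choice of the locus, and nothing about these pathways is read from so few genes. Beside Vti1a these were Stx16, a syntaxin that pairs with Vti1a at the trans-Golgi network, and Bet1, a SNARE of transport between the endoplasmic reticulum and the Golgi. The intronic region of Stx16 (chromosome 3, 165016240 to 165016897) scored 127 in the MLP/C list and 179 in the MLP/MLP-F list. The region upstream of Bet1 (chromosome 4, 29070183 to 29071371) scored 128 and 102. Neither overlapped an MLP-F/C region. A gene without a name in that annotation may still have regions in the deposited lists.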

How the data were processed

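Methylated DNA was captured by MBD from 1 pooled liver library per group. Paired reads were placed on rn4 by the authors with Bowtie, and MACS was run for every 2 libraries. CASAVA is also named in the submitters' processing notes, and versions were not given in the labels or methods. The deposited lists hold positions and a score, 10 times the −log10 of the MACS p. Regions lower in the sample library of a pair were not analysed here, and neither read counts nor depth are in the lists.

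Starts were converted to 1-based positions. Overlap means at least 1 bp. Places are by score, and ties share the last place. Gene names, places in a gene and repeat units were taken from the study's annotation by identical coordinates. Its fold changes and FDR were not used. Chromosome ends for the tiles are the largest ends over the 3 lists. The functions were tested on simulated data. The regions named are those annotated to Gpam or Vti1a, the 5 highest-scoring of each list, those next to the edges, and named members of the pathway lists. Regions outside that rule were picked with their values known. The members and lists were chosen with earlier results of these data known. As alternatives, the score was set to at least 100 or 200, and overlap to 50% of both regions or a gap of 1 kb, the window was widened or narrowed by 100 kb, a high score was set to 500, and other tiles were used. Python 3.11.15, numpy 2.4.6, pandas 2.3.3, SciPy 1.17.1 and matplotlib 3.10.9 were used.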

Additional observations from a re-analysis of the deposited data

How the results depend on the processing

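Of 75 alternatives, 24 moved a count or covered percent by over 1.5 times or another percent out of its counting interval, and 51 did not. At a score of at least 100 the locus held 6 MLP/C, 5 MLP/MLP-F and 1 MLP-F/C regions, covering 0.365%, 0.45% and 0.063% of it. At a score of at least 200 it held 1, 3 and 0. At 100 the sites in the MLP/C list alone numbered 4, those in the MLP/MLP-F list alone 3, those in the MLP-F/C list alone 1, and those in both lists against C 0. With both lists at 200, 100% of the MLP/C regions, which is the Gpam region alone, were in the MLP/MLP-F list. At 100 that percent was 33.3% and the converse 40%, both inside their wide intervals. At 100 and at 200, 0% of the MLP/C regions overlapped an MLP-F/C region, and at 100 no MLP-F/C region overlapped an MLP/C region (0%). The percent of tiles with as many regions as the locus was 29.9% for MLP/C, 43.3% for MLP/MLP-F and 73.6% for MLP-F/C at 100, and 53.3%, 17.6% and 100% at 200. The large number of MLP-F/C regions thus rests on scores below 100. With gaps of up to 1 kb joined, 1 site was in the MLP/MLP-F and MLP-F/C lists. With the window 100 kb wider on each side the MLP/C regions numbered 25 and covered 1.36%. That window, the narrower window, the reciprocal overlap, the other tiles and a high score of 500 stayed within these limits.

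No paired analysis was possible because each group was 1 pooled library. There was no replicate to leave out, the spread between animals and litters is unknown, and the depth at each region is not given by the lists.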
